A study of Mus musculus with 4 samples.

Results

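The 9 genes described here encode components and regulators of the complement system, and were taken by symbol from the table of all 55385 genes measured in mouse granulosa cells (GCs). They were C1ra, C1s1 and C2 of the classical pathway, C3 and Cfb at the centre of the cascade and in the alternative pathway, C7 of the terminal pathway, and the regulators Serping1, Cd55 and Cd59a. GCs are the somatic cells that surround and feed the oocyte. All libraries came from GCs of preantral follicles of Kunming mice, 12 to 14 days of age, after 6 days of in vitro growth in a medium that held FSH, fetuin, insulin, transferrin and albumin. The NT4 group (2 libraries) had neurotrophin-4 (NT-4) in this medium, and the Control group (2 libraries) did not. By the study's description, the libraries of a group came from independent experiments. The p-values of fold changes draw on the spread between 2 such samples in each group and on the spread seen over all genes tested. How many follicles or animals were pooled in a library is not given in the sources used here.

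Complement is a cascade of plasma proteins that tags and lyses cells. In the classical pathway, antibody-bound C1 activates the proteases C1r and C1s, which cleave C4 and C2, while the alternative pathway runs through factor B. Both pathways meet at C3, whose cleavage leads on to the membrane attack complex, and soluble and membrane-bound inhibitors protect the host's own cells. The liver makes most of the complement in plasma, and complement proteins are also found in follicular fluid.

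Expression is given as CPM, counts relative to the library total after TMM scaling (trimmed mean of M values), always for library 1 before library 2 of a group. The log2 fold change, NT4 relative to Control, and its standard error (SE) come from edgeR's quasi-likelihood test. Total counts were 49520092 to 78704020, about 12380023 to 19676005 read pairs. For a gene at 0, up to 3 read pairs are still possible, which is 0.152 to 0.242 CPM by library. This limit covers counting error only. The 14 granulosa markers (such as Fshr, Amh and Foxl2) all passed the filter on low counts. Of the 12 macrophage and leukocyte markers, 7 lay at or below the limit in every library, among them Ptprc, and Cd163 and Tyrobp were at 0 throughout. The 6 that passed the filter, 4 higher and 2 lower in NT4, included Cd68 (up to 1.41 CPM), Lyz2 (up to 1.27 CPM) and Cd14 (up to 1.03 CPM). Control 1 stood apart for part of the genes. It was at least 2-fold above each other library in 228 of the 19259 genes tested (1.18%), against 91 to 189 genes for the other 3 libraries. Among genes that reached 1 CPM in at least 2 libraries these counts were 51 against 20 to 28, and at a log2 difference of 0.58 they were 640 against 316 to 584.

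The question was how NT-4 in the medium changed these transcripts. All 9 genes passed the filter, and edgeR's test called 0 of them at the adjusted threshold of 0.05, as it did 0 of the 19259 genes (0.0%). The adjusted p was 0.9999 for each of the 9. The DESeq2 Wald test called 65 genes of all those tested, edgeR's exact test 59 and limma voom 0, and none of the 9 was among them. The study's own criterion is a change of more than 2-fold at an unadjusted p below 0.05. Applied to the quasi-likelihood test, it was met by 0 of the 9 and by 1.08% of all genes. Which edgeR test the study used is not given in the sources used here. With the exact test 312 genes met the criterion, and how many of the 9 were among these is not given here. At an unadjusted p under 0.05 alone there was 1 of the 9, C2, against 1.99% of all genes. Of the 9, 5 were higher and 4 lower in NT4, and their median log2 fold change was 0.10, beside 0.0045 for all genes. Both NT4 libraries lay above both Control libraries for C2 and Cd55 (2 of 9, against 13.4% of all genes) and below them for C3 (1 of 9, against 12.7%). The other 6 overlapped.

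**Figure D1:**
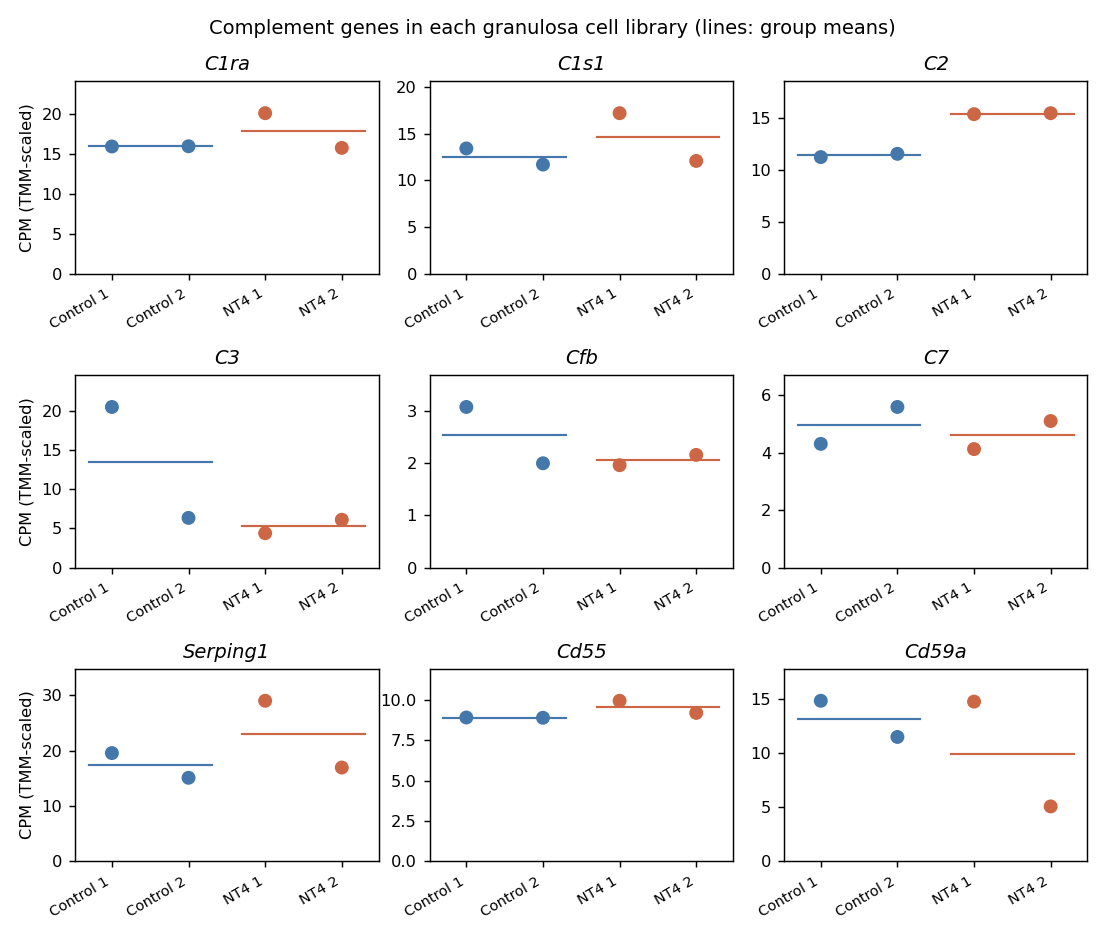
TMM-scaled CPM of the 9 complement genes in each library, with points for libraries and horizontal lines for group means (2 libraries each). The Control points of C2 sit at 11.2 and 11.6 CPM and its NT4 points at 15.4 and 15.5, whereas C3 stands at 20.5 CPM in Control 1 and between 4.40 and 6.35 in the other 3 libraries.

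Of the classical pathway, C2 was higher in both NT4 libraries, and it was the gene of the 9 whose groups stood farthest apart for their spread. C1ra and C1s1 overlapped between the groups. C2 (ENSMUSG00000024371, GRCm38 chr17:34862604-34898265, minus strand) encodes the protease that joins C4b to form the classical C3 convertase. C2 reached 11.2 and 11.6 CPM in the Control libraries and 15.4 and 15.5 CPM in the NT4 libraries. The libraries of each group lay close together, and the groups did not overlap. The Control mean was 11.4 ± 0.22 CPM and the NT4 mean 15.4 ± 0.067 CPM (SD, n = 2). The log2 fold change of C2 was 0.44 (SE 0.16, 95% interval 0.04 to 0.83), with an unadjusted p of 0.0366 in edgeR's test that did not hold after adjustment over all genes. Across 15 other ways of processing it stayed between 0.41 and 0.46, and without Control 1 it was 0.41 with an unadjusted p of 0.197 in edgeR. Exons of C2 share 1656 bases with Gm20547 on the same strand, which had at most 8 counts in a library, and 161 bases with Zbtb12 on the opposite strand.

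C1ra (ENSMUSG00000055172, chr6:124512405-124523443, plus strand) encodes the protease C1r, which cleaves and activates C1s. C1ra was at 16.0 and 16.0 CPM without NT-4 and 20.1 and 15.8 CPM with it. Only NT4 1 stood above the rest, and the groups overlapped. Its log2 fold change was 0.17 (SE 0.18, 95% interval −0.30 to 0.64) and came to −0.024 without NT4 1. C1s1 (ENSMUSG00000038521, chr6:124530345-124542359, minus strand) encodes C1s, the protease that cleaves C4 and C2. C1s1 measured 13.4 and 11.7 CPM in Control and 17.2 and 12.1 CPM in NT4. NT4 1 was again the highest library and NT4 2 lay between the Control libraries. The log2 fold change of C1s1 was 0.22 (SE 0.23, 95% interval −0.35 to 0.80), and without NT4 1 it was −0.061. C1ra and C1s1 are neighbours, 6901 bases apart. Each has a near-identical copy in the mouse, C1rb and C1s2, between which the counting could split reads. With the copies summed, an alternative added after seeing the data, the log2 fold change was 0.042 for C1ra with C1rb and 0.27 for C1s1 with C1s2.

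Promoter windows from RefSeq (GRCm38.p6, 250 bases before to 50 after a start) were matched by symbol for 6 of the 9 genes. They were C3, C1ra, C1s1, C7, Cd55 and Cd59a. Windows were searched on both strands for motifs of factors known to act on acute-phase and complement genes. The motifs were TTNNGCAA (C/EBP), TTCNNNGAA (STAT), TATAAA, GGG and CC separated by 5 bases (NF-kB), and 2 GAAA with a gap of 2 bases (interferon response). Matches may overlap. C1ra and C1s1 are shown because they are neighbours with NT4 1 as their highest library. Capitals mark matches, on either strand.
C1ra, chr6:124512371-124512670, plus strand: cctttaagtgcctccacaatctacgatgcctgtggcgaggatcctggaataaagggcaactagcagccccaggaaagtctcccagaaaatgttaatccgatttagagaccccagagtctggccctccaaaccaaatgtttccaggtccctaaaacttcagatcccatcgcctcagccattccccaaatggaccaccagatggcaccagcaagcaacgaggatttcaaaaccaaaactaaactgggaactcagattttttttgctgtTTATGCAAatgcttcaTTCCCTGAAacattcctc
C1s1, chr6:124542310-124542609, minus strand: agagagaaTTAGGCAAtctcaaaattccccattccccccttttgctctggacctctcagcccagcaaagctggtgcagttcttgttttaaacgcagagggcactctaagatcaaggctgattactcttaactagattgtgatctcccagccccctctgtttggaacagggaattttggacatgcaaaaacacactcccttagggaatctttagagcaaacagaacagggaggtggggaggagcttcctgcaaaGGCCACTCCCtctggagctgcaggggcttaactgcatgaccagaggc
The C1ra window held a C/EBP match at base 267 and a STAT match at base 283, counted from 1 at the 5′ end. The RefSeq start of C1ra lies inside the gene as GENCODE draws it, so the annotations disagree on the start. Both matches lie past the RefSeq start, by 16 and 32 bases, and so within the gene in either annotation. The C1s1 window shown held a C/EBP match at base 9 and an NF-kB match at base 254. RefSeq gives C1s1 another start, whose window (chr6:124542272-124542571) held the NF-kB match and no C/EBP letters. Of all 32544 promoter windows of this length, 10.8% held the C/EBP letters, 8.33% the STAT letters and 51.0% the NF-kB letters. A match is a string of letters and shows no binding.

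C3 was the gene of the 9 with the largest difference between groups on the log2 scale, and this difference rested on Control 1. C3 (ENSMUSG00000024164, chr17:57203970-57228136, minus strand) encodes the central component, on which all pathways of activation converge. C3 was at 20.5 and 6.35 CPM in the Control libraries and 4.40 and 6.11 CPM in the NT4 libraries, which was 1028, 468, 274 and 471 counts, or about 257, 117, 68 and 118 read pairs. Control 1 lay 3.23-fold above Control 2, and Control 2 lay just above NT4 2. The groups did not overlap, but the Control libraries differed by more than Control 2 differed from either NT4 library. The Control mean was 13.4 ± 9.996 CPM and the NT4 mean 5.25 ± 1.21 CPM (SD, n = 2). The log2 fold change of C3 was −1.35 (SE 0.56, 95% interval −2.77 to 0.07), with an unadjusted p of 0.0585 in edgeR. Without Control 1 it was −0.28 (SE 0.37), and without Control 2 it was −1.96 (SE 0.33). In bulk RNA, fewer cells that express a gene and less RNA per cell cannot be told apart. The spread of C3 over the 4 libraries, 4.66-fold from lowest to highest, was at the 91.0th percentile of all genes tested. The study itself reports lower C3 with NT-4 by qRT-PCR in GCs at this time, a measurement not re-analysed here. It also lists complement and coagulation cascades among the pathways of genes lower with NT-4.

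The C3 promoter window is shown as that of the gene the comparison turns on, with matches in capitals.
C3, chr17:57228087-57228386, minus strand: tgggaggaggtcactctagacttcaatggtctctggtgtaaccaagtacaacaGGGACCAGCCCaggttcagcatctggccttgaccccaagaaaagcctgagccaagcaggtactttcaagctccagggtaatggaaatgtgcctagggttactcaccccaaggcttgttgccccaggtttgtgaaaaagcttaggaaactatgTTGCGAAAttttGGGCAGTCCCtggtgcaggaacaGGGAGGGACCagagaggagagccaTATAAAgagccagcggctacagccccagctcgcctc
It held a C/EBP match at base 206, NF-kB matches at bases 54, 55, 218 and 241 (those at 54 and 55 overlap), and TATAAA at base 265, which 13.6% of all windows held. This TATAAA lies 14 bases past the start. No STAT letters and no interferon response letters (3.45% of all windows) were in this window.

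Cfb (ENSMUSG00000090231, chr17:34856374-34862518, minus strand) encodes factor B, the protease of the alternative C3 convertase, and begins 85 bases past the 3′ end of C2. Cfb was at 3.07 and 1.99 CPM without NT-4 and 1.96 and 2.15 CPM with it. As with C3, Control 1 was the highest library, but the lead was smaller, at 1.54-fold over Control 2. The log2 fold change of Cfb was −0.30 (SE 0.34, 95% interval −1.16 to 0.56), and without Control 1 it was 0.039. Cfb and C2, although neighbours on the same strand, had their highest values in different libraries. C7 (ENSMUSG00000079105, chr15:4988762-5063740, minus strand) encodes a part of the membrane attack complex. C7 measured 4.30 and 5.59 CPM in Control and 4.12 and 5.10 CPM in NT4. The libraries with number 2 were the higher ones in each group, and the groups overlapped. Its log2 fold change was −0.10 (SE 0.26, 95% interval −0.76 to 0.55), and it was 0.11 without Control 2 and 0.036 without NT4 1.

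Among the regulators, Serping1 leaned on NT4 1 and Cd59a on NT4 2, while Cd55 was nearly level. Serping1 (ENSMUSG00000023224, chr2:84765387-84775444, minus strand) encodes C1 inhibitor, the soluble serpin that inactivates C1r and C1s. Serping1 was at 19.6 and 15.1 CPM in the Control libraries and 29.0 and 17.0 CPM in the NT4 libraries. NT4 1 was the highest, as for C1ra and C1s1, and NT4 2 lay between the Control libraries. Serping1 had a log2 fold change of 0.41 (SE 0.30, 95% interval −0.35 to 1.16). It was −0.038 without NT4 1 and 0.74 without NT4 2, the latter at an unadjusted p of 0.0257 in edgeR. Without Control 1 it was 0.60.

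Cd55 (ENSMUSG00000026399, chr1:130439027-130462744, minus strand) encodes decay-accelerating factor, a membrane protein that takes apart C3 convertases. Cd55 was at 8.93 and 8.91 CPM without NT-4 and 9.96 and 9.21 CPM with it. Both NT4 libraries lay above both Control libraries, although the highest and the lowest library differed by 1.12-fold only. Its log2 fold change was 0.10 (SE 0.17, 95% interval −0.33 to 0.54). Cd59a (ENSMUSG00000032679, chr2:104095801-104115354, plus strand) encodes a membrane-anchored inhibitor of the membrane attack complex. Cd59a measured 14.8 and 11.5 CPM in Control and 14.7 and 5.07 CPM in NT4. NT4 1 matched the higher Control library, whereas NT4 2 was 2.90-fold below NT4 1. Cd59a had a log2 fold change of −0.41 (SE 0.50, 95% interval −1.67 to 0.85). Without NT4 1 it was −1.38 (unadjusted p = 0.00536, adjusted p = 0.796 in edgeR) and without NT4 2 it was 0.16. Summed with their near-identical copies, Cd55 with Cd55b gave 0.094 and Cd59a with Cd59b gave −0.29.

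**Figure D2:**
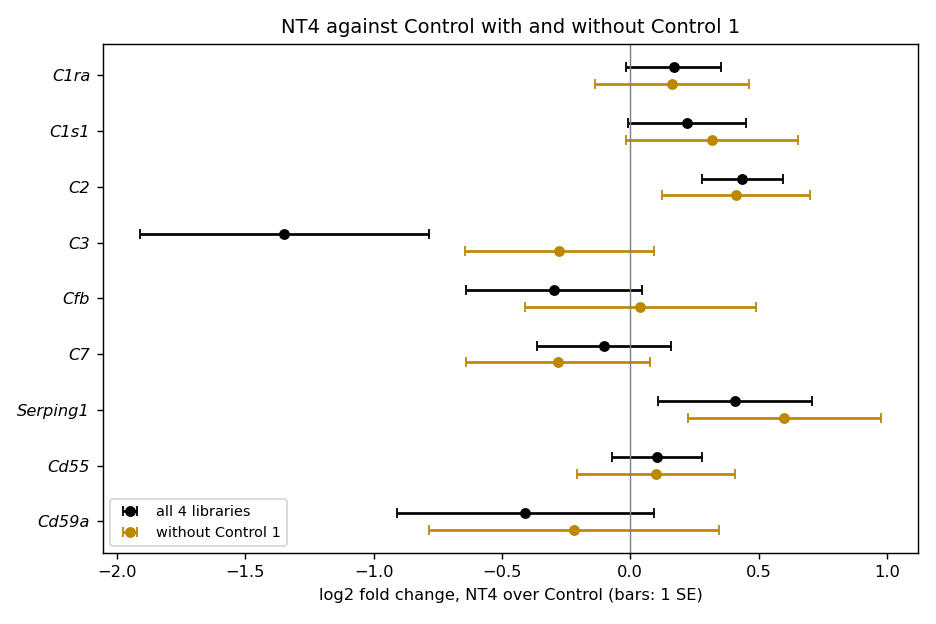
Log2 fold changes of NT4 over Control with bars of 1 SE, fitted with all 4 libraries (black) and without Control 1 (gold). C3 goes from −1.35 to −0.28, C2 from 0.44 to 0.41 and Cfb from −0.30 to 0.039.

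Leaving out Control 1 thus moved C3 more than the rest. Without it, edgeR called 0 of the 9 genes at the adjusted threshold, against 0.0588% of 20414 genes tested (12 genes), and 0 met the study's criterion, against 1.99%. Their lowest unadjusted p was 0.154 in edgeR, that of Serping1. The median log2 fold change of the 9 was 0.10, beside 0.013 for all genes, with 6 higher and 3 lower. Of the fits with a library left out, only that without Control 1 has the 9 counted at the study's criterion here. In other such fits, C3 was at −1.96 without Control 2 and Cd59a at −1.38 without NT4 1, both past 2-fold.

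C3 was then set against each of the other 8 genes within a library, as a log2 ratio of CPM. The ratio of C3 to C2 was 0.86 and −0.86 in the Control libraries against −1.80 and −1.34 in the NT4 libraries. The Control libraries were thus on opposite sides of 0, and the NT4 libraries lay below both. The NT4 mean of the log2 ratio minus the Control mean was, for the other components, −1.57 for C2, −1.34 for C1s1, −1.29 for C1ra, −1.04 for C7 and −0.87 for Cfb. It was −1.5002 for the soluble regulator Serping1, and for the membrane regulators −1.24 for Cd55 and −0.54 for Cd59a. With 2 libraries against 2, an exact two-sided permutation test cannot go below p = 0.33, which 6 of the 8 ratios had (adjusted p = 0.444 over the 8), and it was 0.667 for C7 and Cd59a. Without Control 1 the differences were −0.71 for C2, −0.45 for C1ra, −0.59 for C1s1, −0.0072 for C7, −0.33 for Cfb, −0.84 for Serping1 and −0.39 for Cd55, and that for Cd59a turned to 0.12. NT4 1 gave the lowest ratio against each of the 8 genes, Serping1 among them. The log2 ratio of C3 to Serping1 was −1.25 in Control 2, −2.71 in NT4 1 and −1.47 in NT4 2.

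Levels were compared between genes as CPM per kilobase of merged exons. Averaged over the 4 libraries (SD, n = 4), Serping1 was highest at 8.67 ± 2.66. Cd59a followed at 6.36 ± 2.52, C1ra at 5.69 ± 0.71, C1s1 at 4.34 ± 0.80 and C2 at 3.46 ± 0.60. Cd55 was at 1.91 ± 0.10, C3 at 1.81 ± 1.46, C7 at 1.79 ± 0.26 and Cfb at 0.812 ± 0.185. With the length of the longest transcript instead of merged exons, C2 was at 5.08 and C1s1 at 4.61, which turned their order, and Cd55 was at 2.95. Of neighbours in the order by merged exons, only C2 and Cd55, and C7 and Cfb, had ranges over the libraries that did not overlap. C3 was above C7 in 1 of 4 libraries, Control 1. Per kilobase, C3 was 3.98 and 1.23 in Control and 0.855 and 1.19 in NT4, and without Control 1 it averaged 1.09 ± 0.21 (SD, n = 3). The ratio of C3 to Serping1 per kilobase was 0.473 and 0.190 in Control and 0.0685 and 0.163 in NT4.

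The pathway around the 9 genes was taken from a list of 61 complement genes, of which 45 were tested. In NT4, 16 of them were higher and 29 lower, with a median log2 fold change of −0.10. In edgeR 0 passed the adjusted threshold, and 3 of the 45 had an unadjusted p under 0.05 (C2, Vtn and Mbl1), against 1.99% of all genes. By their fitted values Vtn and Mbl1 met the study's criterion, as 1.08% of all genes did, but the value of Mbl1 is set against a group at 0. Without Control 1, 48 were tested, 27 higher and 21 lower, the median was 0.033, and Mbl1 alone met the criterion by its fitted value (against 1.99% of all genes). Vtn encodes vitronectin, which blocks insertion of the terminal complex. It was at 5.18 and 2.54 CPM in the Control libraries and 1.51 and 1.58 CPM in the NT4 libraries; the log2 fold change was −1.32 (SE 0.42, unadjusted p = 0.0234 in edgeR). Without Control 1 the value of Vtn was −0.72 (SE 0.45, unadjusted p = 0.151 in edgeR), past neither threshold. Mbl1, a mannose-binding lectin, had 19 counts in each Control library and 0 in each NT4 library, which against 3 read pairs per library is at least 1.84-fold lower. This bound does not reach the 2-fold of the criterion. Without the 9 genes, 36 of the list were tested, 11 higher and 25 lower, with a median of −0.16. This lean to lower values was lost without Control 1. The whole list was then 27 higher and 21 lower, and the 9 genes in it 6 higher and 3 lower.

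By role, C3 and the alternative pathway (C3, Cfb, Cfd and Cfp) were lower in NT4 in 4 of 4 genes with all 4 libraries. Without Control 1, Cfb came to 0.039 and Cfp to 0.098, and C3 (−0.28) and Cfd (−0.59) were lower. Of the lectin pathway 5 of 6 tested were lower (median log2 fold change −0.20), of the terminal pathway 5 of 6 (median −0.088) and of the soluble regulators 6 of 8 (median −0.50). Serping1, at 0.41, was on the other side from most soluble regulators with all 4 libraries, and came to −0.038 without NT4 1. Without Control 1, Serping1 was at 0.60 and most soluble regulators were no longer lower. Of the 8, C4bp, Cfhr2, Vtn and Cpn2 were then lower and the others higher. The classical pathway was higher in 6 of 10 tested (median 0.19), the membrane regulators in 4 of 8 and the receptors in 2 of 3. Without Control 1, only C1rb (−0.13) and C4a (−0.80) of the classical genes tested were lower. Several genes of the list outside the 9 had levels per kilobase above theirs or among them. Clu, which encodes clusterin, an inhibitor of the terminal complex, averaged 240.5 ± 18.3. C1qbp averaged 51.9, Masp1, a protease of the lectin pathway, 28.8, Cr1l 3.34, Csmd1 2.26, Colec12 2.23 and Cfp 1.47. Serping1, the highest of the 9, came next after Masp1. The C1q chains, with which C1r and C1s form C1, were near the limit, at most 0.299 CPM for C1qa, 0.339 for C1qb and 0.104 for C1qc. Of the 10 receptors, 7 were too low to be tested, and C3ar1 and C5ar2 were at 0 in every library, as was Fcnb of the lectin pathway. A count of 0 allows up to 0.152 CPM in the deepest library.

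**Figure D3:**
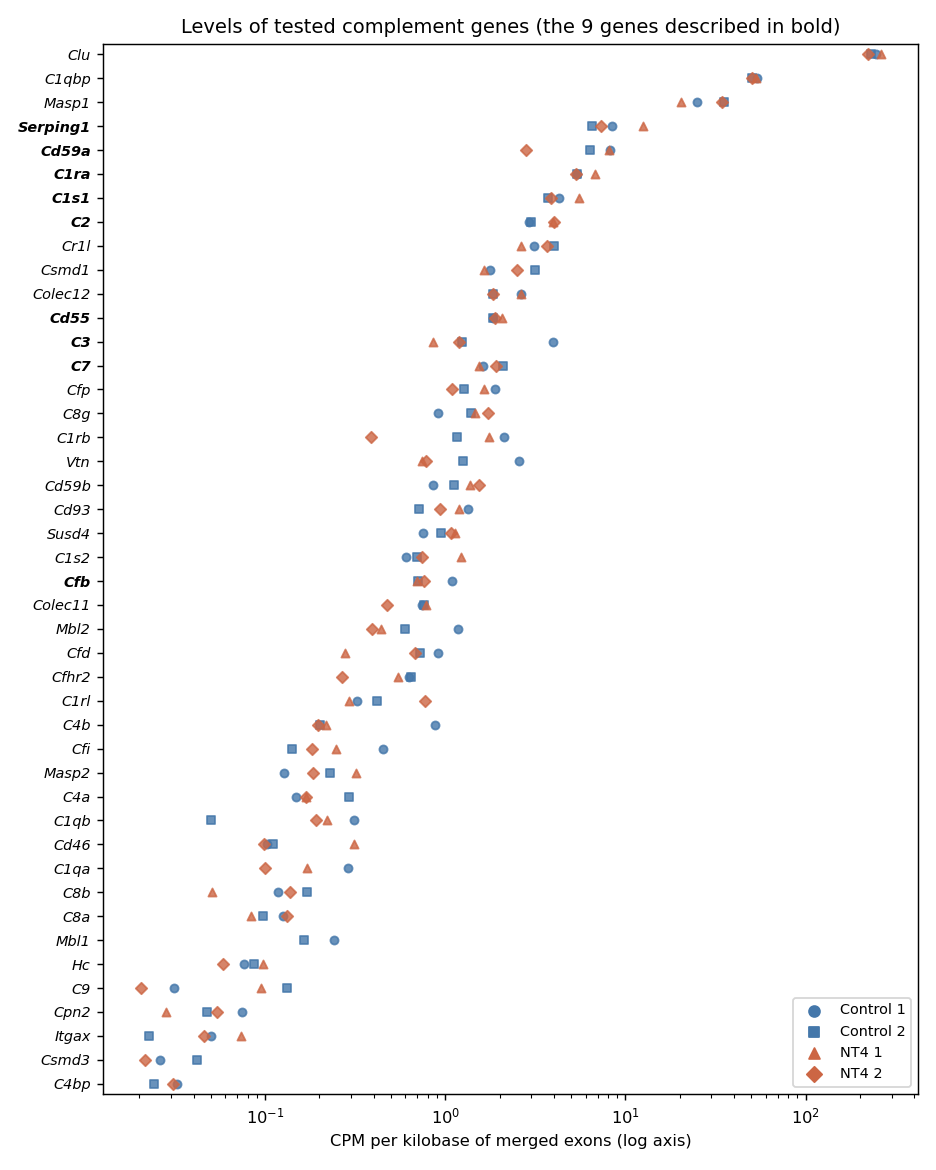
Levels of tested complement genes as CPM per kilobase of merged exons on a log axis, 1 point per library (values of 0 cannot be drawn), with the 9 genes in bold. Serping1 averages 8.67 and Cfb 0.812, below Clu at 240.5, and the points of C3 spread from 0.855 to 3.98.

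Genes with a pattern like C3 were looked for among 14333 genes with a mean CPM of at least 1, by the root mean square difference of log2 CPM over the 4 libraries after centring each gene. The median difference from C3 over all genes was 0.856. The 5 nearest were Gm6745 (0.105), a processed pseudogene, Lcn2 (0.126), Usp49 (0.138), Itih4 (0.201) and Ambp (0.212). Gm6745 was at 6.02 and 2.10 CPM without NT-4 and 1.24 and 1.66 CPM with it. Usp49 was at 27.8 and 10.1 CPM in Control and 7.30 and 8.13 CPM in NT4. Lcn2, an iron-binding acute-phase protein, was at 3.05 and 1.15 CPM without NT-4 and 0.674 and 1.08 CPM with it. Itih4, a plasma protease inhibitor, was at 7.63, 2.50, 1.67 and 1.69 CPM in the same order. Ambp, precursor of a plasma microglobulin, was at 5.96, 2.21, 1.56 and 1.505 CPM. On the complement list, C4b ranked 14th (0.266; 4.98, 1.15, 1.24 and 1.12 CPM) and Vtn 18th (0.278). Of the 9, Cfb was nearest to C3, at rank 215 (0.588), and the other 7 lay between 0.883 (Cd55) and 1.01 (C2), past the median. C4b has a near-identical copy, C4a, with which it can share reads.

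**Figure D4:**
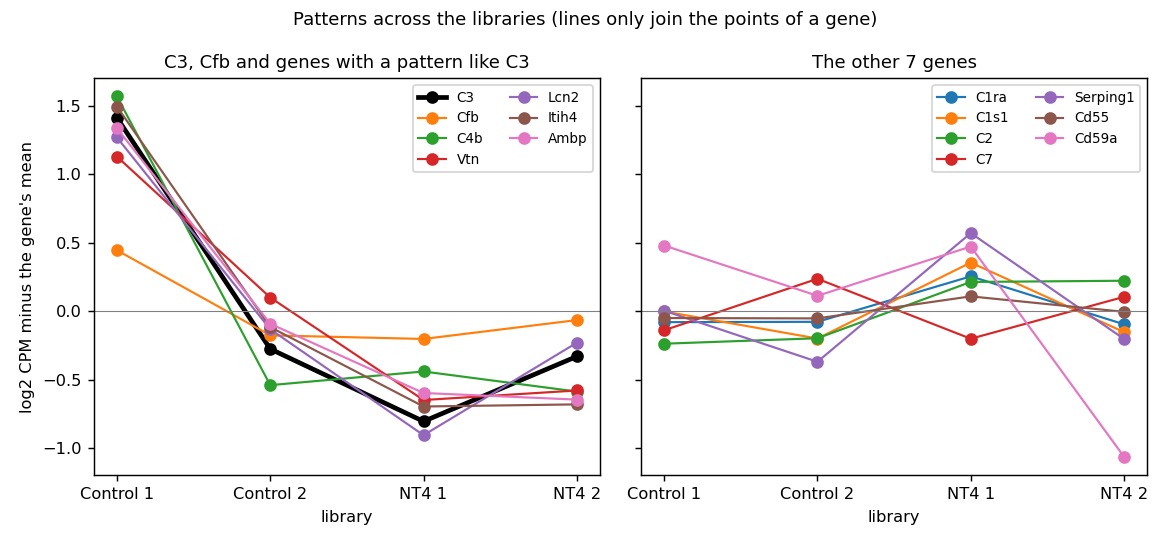
Log2 CPM minus the gene's mean over the 4 libraries for C3, Cfb and genes with a like pattern (left) and for the other 7 genes (right). C3, C4b, Vtn, Lcn2, Itih4 and Ambp peak in Control 1, while Serping1 and C1s1 peak in NT4 1 and Cd59a has its lowest point in NT4 2. Gm6745 and Usp49, which also rank among the nearest to C3 and peak in Control 1, are not drawn.

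Markers of cells other than GCs peaked in the same libraries as some of these genes. The 13 hepatocyte markers (such as Alb, Hp and Trf) summed to 236 and 111 CPM in Control and 111 and 115 CPM in NT4, highest where C3 was highest. All 13 were lower in NT4, with a median log2 fold change of −1.09, 4 of 13 met the study's criterion (against 1.08% of all genes), and none was at 0 in every library. Each of the 13 was highest in Control 1. Without Control 1, 3 were higher and 10 lower, with a median of −0.30, and 1 met the criterion (against 1.99%). Alb was at 41.9, 23.0, 27.8 and 32.9 CPM and Hp at 26.8, 7.43, 3.08 and 3.96 CPM in Control 1, Control 2, NT4 1 and NT4 2. The 10 oocyte markers also summed highest in Control 1, to 106 CPM against 73.5 to 88.3 CPM in the other libraries. The part of either list in the values of C3 and Cfb was not tested.

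The 16 theca and stroma markers (such as Col1a1, Dcn and Cyp17a1) summed to 1540 and 1504 CPM in Control and 2180 and 1767 CPM in NT4. The sum was highest in NT4 1, as were C1ra, C1s1 and Serping1, and so were 11 of the 16 markers, Col1a1 among them. The markers of steroid-making theca did not follow: Cyp17a1 was at 72.2 and 133.6 CPM in Control and 133.9 and 173.3 CPM in NT4, and Insl3 was likewise highest in NT4 2, at 16.5 CPM. Dcn too was highest in NT4 2, at 67.1 CPM against 64.2 in NT4 1. Of 15 tested, 14 were higher in NT4, with a median of 0.39. An unadjusted p under 0.05 in edgeR was found for 5 of the 15 (Col3a1, Dcn, Lum, Tcf21 and Acta2), against 1.99% of all genes, and 0 passed the adjusted threshold. Their part in the values of C1ra, C1s1 and Serping1 was not tested. The 14 granulosa markers summed to 14666 and 18091 CPM in Control and 12932 and 19930 CPM in NT4, lowest in NT4 1. Inha was the largest part of this sum, at 5821 CPM in NT4 1. Going the other way, 3 of the 14 were highest in NT4 1: Amh (391 CPM), Amhr2 (267 CPM) and Kitl (144 CPM). The macrophage and leukocyte markers summed to 2.33 to 4.41 CPM only. A list of 31 genes known to respond to interferon, NF-kB or acute-phase signals had 28 tested, 22 higher and 6 lower, with a median of 0.22, and edgeR called 0 of them at the adjusted threshold. Without Control 1, 18 were higher and 10 lower, with a median of 0.25. With all 4 libraries, 1 of the 28 had an unadjusted p under 0.05, against 1.99% of all genes. This was Cebpb, chosen for naming after its values were seen, which encodes a C/EBP factor of the acute-phase response. Cebpb was at 54.2, 56.1, 86.7 and 82.6 CPM in Control 1, Control 2, NT4 1 and NT4 2 (log2 fold change 0.62, unadjusted p = 0.00272 and adjusted p = 0.9999 in edgeR).

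**Figure D5:**
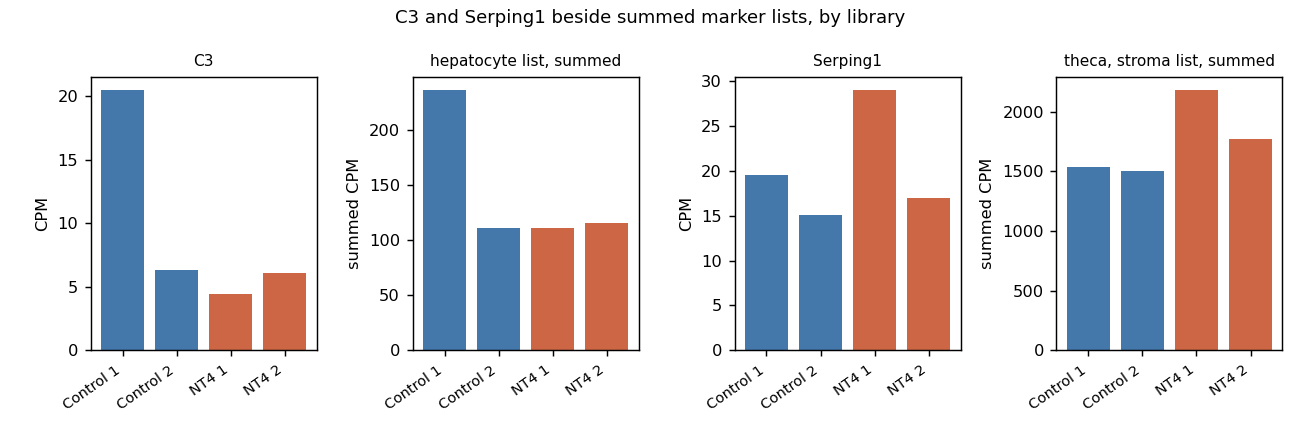
CPM of C3 and Serping1 beside the summed CPM of the hepatocyte list and of the theca and stroma list, with 1 bar per library (blue Control, orange NT4). C3 and the hepatocyte list are highest in Control 1 (20.5 and 236 CPM), and Serping1 and the theca and stroma list in NT4 1 (29.0 and 2180 CPM).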

How the data were processed

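Bulk RNA of GCs was measured in 4 libraries, grouped by their labels into NT4 and Control. The 9 genes and all gene lists were chosen with earlier results of these data known. By their methods, the authors removed poor or adaptor-bearing reads with Cutadapt, used HISAT2 to map the remainder to mouse (Ensembl in the methods, mm10 in the labels) and took expression from StringTie and ballgown. What the authors deposited are estimated counts per gene, in whole numbers and not normalized. How they were made from StringTie output, and whether counting used the strand that the dUTP libraries keep, is not given in the sources used here. Of counts from 1 to 12, 45.4% to 46.2% per library were exactly 4, 8 or 12, so 1 read pair was taken as 4 counts. The files of single libraries matched the series table in 4 of 4 libraries, and 55144 of 55385 genes matched a symbol.

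Counts were tested in R 4.3.3 with edgeR 4.0.16 (quasi-likelihood test, TMM, default filter on low counts, group alone in the model, two-sided, Benjamini-Hochberg adjustment over 19259 genes). Log2 CPM used a prior count of 2. Coordinates and exon lengths came from GENCODE M21 (GRCm38), and promoters from RefSeq. Genes named outside the 9 were, by rule, the 8 other complement genes with the highest levels, those that met the study's criterion, and the 5 nearest to C3 in pattern. C4b, Cfd, C4bp, Cfhr2, Cpn2, the C1q chains, genes at 0 and examples from the other lists fell outside the rule and were picked after their values were seen. Of the genes under this rule, 1 is not reported here. Alternatives were other size factors, no filter, a CPM filter, limma 3.58.1 voom, edgeR's exact test, the Wald test of DESeq2 1.42.0, counts divided by 4, the replicate number as a block, each library left out, overlapping genes summed, exon length by longest transcript, a 1.5-fold criterion and a prior count of 0.5. Summing near-identical copies, and list counts without Control 1, were added after seeing the data. The procedure was tested on simulated counts.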

Additional observations from a re-analysis of the deposited data

How the results depend on the processing

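No alternative brought any of the 9 genes past an adjusted p of 0.05, and the direction of C2, C3 and Cd55 held in all that were run. Leaving out each library in turn, where the spread of the lone library is taken from the other group, gave log2 fold changes of −0.024 to 0.33 for C1ra, −0.061 to 0.45 for C1s1, −0.28 to 0.11 for C7, −0.57 to 0.039 for Cfb, −0.038 to 0.74 for Serping1 and −1.38 to 0.16 for Cd59a, and the cause was not tested. For C3 the range was −1.96 to −0.28. The difference in the ratio of C3 to Cd59a ranged from −1.55 to 0.46. Medians ranged from −0.038 to 0.16 for the 9 genes, −0.11 to 0.059 for the complement list and 0.14 to 0.25 for the inflammation list. Under all alternatives, 125 values of the 9 genes kept their direction and their side of the threshold, and 7 changed direction.

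The number of all genes past an adjusted p of 0.05, 0 in edgeR's quasi-likelihood test, was 10 with no filter, 65 with DESeq2, 59 with the exact test and 0 to 37 with a library left out (12 without Control 1, 37 without Control 2). The 208 genes at the study's criterion became 345 with no filter, 87 with the CPM filter, 119 with counts divided by 4 and 341 to 512 with a library left out. The labels do not say that a replicate number marks a shared batch. Deviations of same-numbered libraries correlated over genes with Pearson's r of 0.14 and Spearman's rho of 0.26, and with the replicate block 0 genes passed the adjusted threshold, 180 met the criterion and C3 had a log2 fold change of −1.14. Depth limits Cfb and C7 most of the 9, and a gene at 0 could lie up to 0.242 CPM in Control 1.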
